A study of Homo sapiens with 6 samples.

Results

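The genes described here are the ligands, latent binding proteins, receptors, SMADs, inhibitors and ID outputs of the transforming growth factor beta (TGF-beta) and bone morphogenetic protein (BMP) pathways. They were chosen by gene symbol from a list of 44, and 43 of them could be read on the array, out of 19775 genes in all; BMPR1A was not analysed here. The 43 genes had 125 probe sets that list a single gene. A further probe set lists ID2 together with ID2B and was assigned to neither.

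MCF10A is an established, non-tumorigenic line of human mammary epithelial cells. In 1 group the cells had been transfected with miR-221/222, labelled as a mimic, and in the other with a control microRNA (miR-control), with 3 biological replicates and thus 3 single-colour arrays per group. All 6 samples are of that line, and the labels give no dose and no time after transfection. A mimic adds a microRNA from outside the cell, so by the labels the arrays compare a raised level of miR-221 and miR-222 with the level the control cells had. The microRNA levels themselves were not read here. The unit throughout is the log2 intensity of a probe set, a group of probes for 1 transcript.

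TGF-beta, activins and BMPs are secreted dimers that bring together type II and type I receptor kinases. The type I receptor phosphorylates receptor SMADs (SMAD2 and SMAD3 for TGF-beta and activin; SMAD1, SMAD5 and SMAD9 for BMPs), which join SMAD4 and act on genes in the nucleus. In mammary epithelium TGF-beta is known for halting growth and for loosening epithelial character, and the pathway induces its own inhibitors. In what follows, genes are divided into a TGF-beta and activin arm (19 genes), a BMP arm (17 genes measured) and a group that serves both (7 genes).

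The transfected microRNAs are shown first because they are the treatment. Their mature sequences share bases 2 to 8, the seed that does most of the pairing with messenger RNAs. The labels do not name the arm, and the 3p arms are shown as the strands that carry that shared seed. Capitals mark the seed, and the positions are in GRCh38.p14, from RefSeq, at chrX:45746180-45746202 on the minus strand for miR-221 and chrX:45747036-45747056 on the minus strand for miR-222.
hsa-miR-221-3p: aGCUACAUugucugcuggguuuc
hsa-miR-222-3p: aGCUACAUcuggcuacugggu

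On the arrays, cells given the mimic had more TGFB1, BMP2, SMAD9 and TMEM100 RNA and more RNA of the intracellular inhibitors SMAD6, SMAD7, SKI, SKIL, SMURF1 and SMURF2. They had less RNA of BAMBI, an inhibitor in the membrane, and less TGFBR2, LTBP2, BMPR1B, SMAD1, SMAD5 and ID3. Of the 43 genes, 16 rose and 10 fell by limma at a Benjamini-Hochberg adjusted p of 0.05 over all 54613 probe sets tested. That is 60.5% of the genes, where 30.4% of all 19775 genes passed, 14.1% higher and 16.3% lower. Among the 13041 genes whose mean lay above the highest array median, 40.7% passed, 17.9% higher and 22.8% lower, against 61.5% of the 39 pathway genes that bright, of which 15 rose and 9 fell. Calls with at least a 2-fold change numbered 7 higher and 2 lower (BAMBI and ID3), where 3.05% of all genes had one. Read by probe set, 55 of the 125 (44.0%) passed, against 24.8% of all probe sets. Each difference below is the mimic mean less the control mean, in log2 units, with limma's standard error (SE). The median difference of the 43 genes was 0.05 and that of all genes 0.03, while the median size of the difference, whatever its sign, was 0.29 against 0.12. The arrays of the groups did not overlap for 29 of the 43 genes (67.4%), against 45.6% of all genes. Since these genes were listed with earlier results of the same arrays known, the counts describe the list and test nothing about it.

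**Figure D1:**
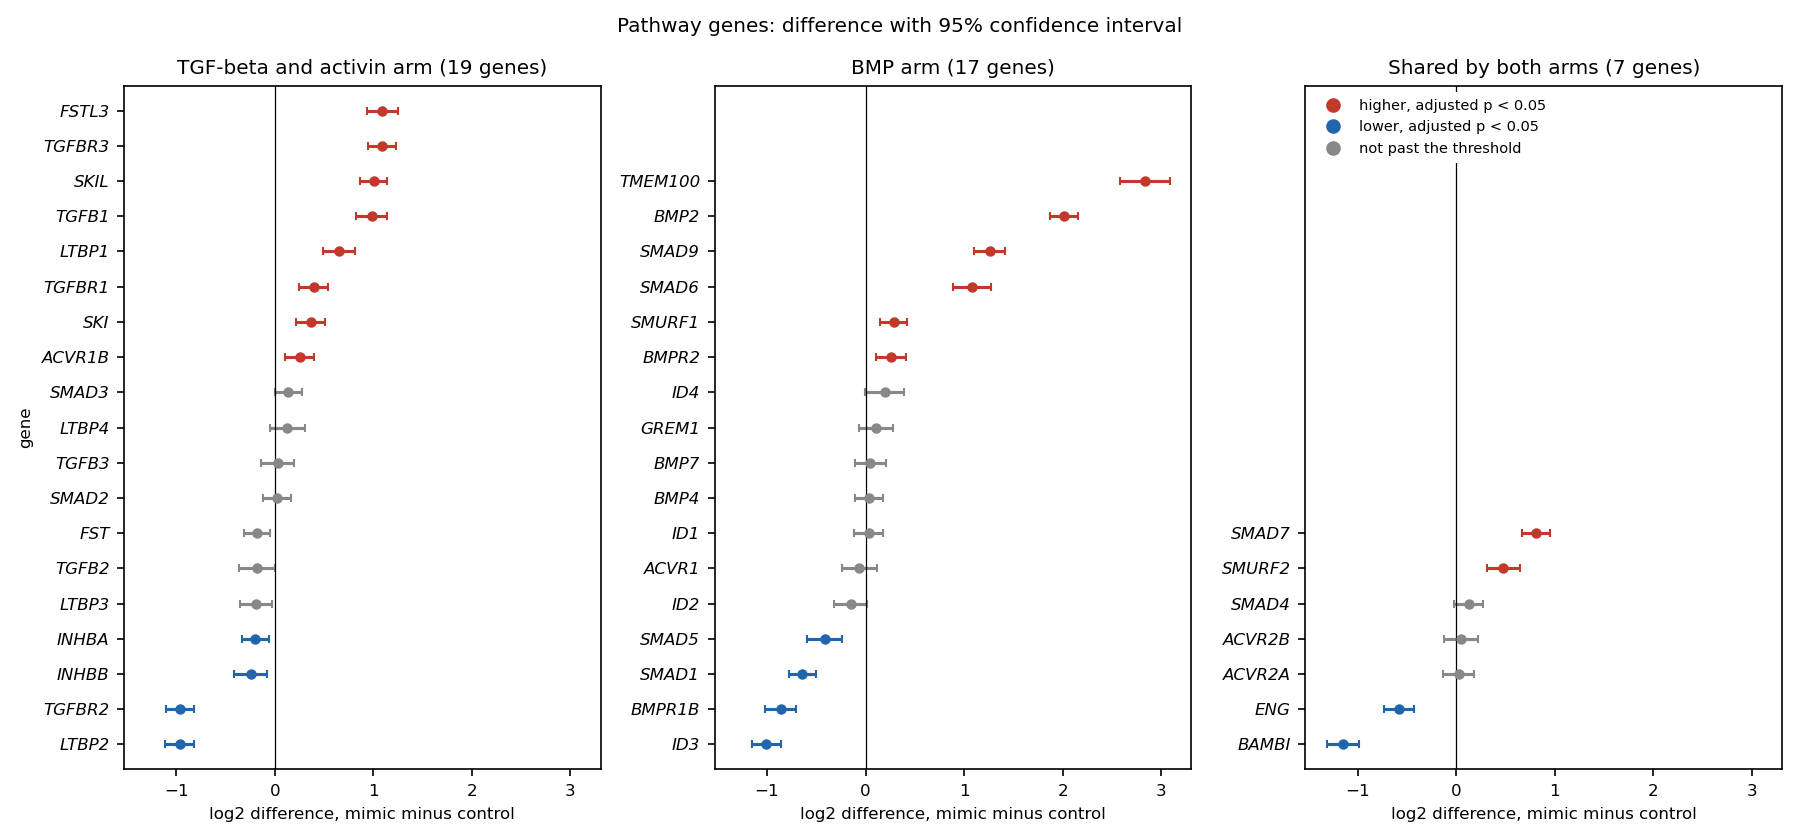
Differences of the 43 genes (horizontal axis, log2, mimic minus control) with 95% confidence intervals from limma, in 3 panels for the TGF-beta and activin arm, the BMP arm and the shared genes. TMEM100 (2.83) and BMP2 (2.02) lie farthest to the right and BAMBI (-1.15) farthest to the left, and genes past the threshold lie on both sides of 0 in each panel.

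Array medians lay between 7.59 and 7.66, and the lowest value on any array was between 3.67 and 3.72. Pairs of arrays of 1 group correlated with r from 0.9953 to 0.998 across probe sets, which are not independent replicates. Without detection calls it is not known which dim values lie above background, and the number of arrays limits the precision. Markers of the labelled cell type were read, namely 5 basal mammary ones (KRT5, KRT14, EGFR, ITGA6 and ITGB4) and 4 epithelial ones. All averaged above the array medians in both groups, and 4 of the 5 and 4 of the 4 fell. Of all genes 16.3% fell, and of those above the highest array median 22.8%. KRT17 and TP63, also listed as basal markers, had no value here. Some fibroblast, endothelial and blood markers also lay above the medians, while others lay below. Mimic and control means were 9.59 and 9.51 for COL1A1, 9.22 and 9.19 for PECAM1 and 8.82 and 8.67 for CD3E. Lying above the medians thus does not tell cell types apart and is no check of the label. CDKN1B, a cell cycle inhibitor gene that is a long known target of these microRNAs, averaged 11.29 ± 0.11 on the mimic and 11.94 ± 0.05 on the control arrays (SD, n = 3 each). CDKN1C, another gene of that family, went the other way, at 11.82 ± 0.06 on the mimic and 10.48 ± 0.07 on the control arrays. Its difference was 1.34, and 4 of its 5 probe sets rose. The fall of CDKN1B was thus not taken as a check that the mimic acted. In bulk RNA, fewer cells expressing a gene and less RNA per cell cannot be told apart.

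The TGF-beta and activin arm was examined first, to ask whether ligands, receptors and inhibitors of that arm changed. Of its 19 genes, 8 rose and 4 fell, which is 63.2%. That compares with 30.4% of all genes and 40.7% of those above the highest array median. Among the ligand genes, TGFB1, which encodes the most widely expressed TGF-beta, changed most. It read 10.89, 10.996 and 11.11 on the mimic arrays (replicates 1, 2 and 3) and 10.05, 9.97 and 10.03 on the control arrays. Every mimic array lay above every control array, by a mean of 0.98 ± 0.07 (SE) or 1.98-fold (adjusted p = 1.7e-06). A second TGFB1 probe set, near 6.93 and below the array medians, differed by 0.01 and did not pass. Neither of the other TGF-beta ligand genes passed at the probe set read. TGFB2 differed by -0.18 ± 0.08 (95% confidence interval -0.37 to -0.0018), and 1 of its 5 probe sets, at -0.34, passed. TGFB2 passed without mimic replicate 3 (-0.27, adjusted p = 0.016), with array weights (-0.21) and with its probe sets averaged (-0.17). TGFB3 differed by 0.03 ± 0.07, with an interval of -0.14 to 0.19. INHBA and INHBB, which encode activin subunits, fell by small amounts at the probe sets read, 0.20 and 0.25. A dimmer INHBA probe set, averaging 5.71 on the mimic and 6.26 on the control arrays, fell by 0.55 (limma adjusted p = 0.0038). The third INHBA probe set, at -0.03, did not pass. INHBA read 7.75, 7.87 and 7.78 against 7.99, 7.97 and 8.03 in the control, and INHBB 7.42, 7.63 and 7.37 against 7.74, 7.68 and 7.74; the groups did not overlap for either. The INHBA call at the probe set read was lost without any one of the 6 arrays (adjusted p up to 0.105). The INHBB call was lost without control replicate 1, 2 or 3 or mimic replicate 1 or 3 (adjusted p up to 0.116).

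Latent TGF-beta binding proteins hold the secreted ligand in the matrix in an inactive form, and their genes parted. LTBP1 read 11.65, 11.77 and 11.91 on the mimic arrays and 11.15, 11.12 and 11.11 on the control arrays. Its mimic arrays were all above its control arrays, by 0.65 ± 0.07 (adjusted p = 5.7e-05), and both of its probe sets rose. LTBP2 read 9.36, 9.22 and 9.34 on the mimic and 10.33, 10.22 and 10.27 on the control arrays. Its mimic arrays were all below, with a difference of -0.97 ± 0.07 (adjusted p = 1.1e-06), and the second LTBP2 probe set fell by 1.23. LTBP2, unlike LTBP1, is known as a matrix protein that does not bind latent TGF-beta. LTBP3 (-0.19 ± 0.08) and LTBP4 (0.13 ± 0.08) did not pass, though without mimic replicate 3 LTBP3 passed, at -0.25 (adjusted p = 0.031).

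The secreted antagonists of this arm, which trap activins, also gave unlike values. FSTL3 read 11.06, 11.18 and 11.24 on the mimic and 9.999, 10.04 and 10.16 on the control arrays. The groups were apart by 1.09 ± 0.07, or 2.13-fold (adjusted p = 8.7e-07), on the gene's only probe set. FST, the follistatin gene, had a difference of -0.18 ± 0.06 at the probe set used, whose mimic arrays were all lower but which just missed the threshold (adjusted p = 0.051). Another FST probe set read 7.38, 7.49 and 7.69 on the mimic and 8.73, 8.58 and 8.51 on the control arrays, a fall of 1.09 that passed. With all 3 FST probe sets averaged the gene fell by 0.47.

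Among the receptors, the type II receptor gene TGFBR2, needed for any response to TGF-beta, read 12.26, 12.40 and 12.43 on the mimic arrays and 13.33, 13.30 and 13.35 on the control arrays. The mimic arrays were all lower, by 0.96 ± 0.07 with the control 1.95-fold higher (adjusted p = 1.1e-06), and the second TGFBR2 probe set fell by 1.11. TGFBR1, its type I partner, moved the other way by a smaller amount, 0.39 ± 0.07 (adjusted p = 0.00093), on all 3 of its probe sets. ACVR1B, the activin type I receptor gene, rose by 0.25 ± 0.07 (adjusted p = 0.016) on 1 of 6 probe sets; this call was lost without control replicate 1, control replicate 3 or mimic replicate 2 (adjusted p up to 0.0671) and with all probe sets averaged (0.06). TGFBR3, the co-receptor betaglycan that presents TGF-beta to TGFBR2, read 12.07, 12.15 and 12.22 on the mimic and 11.02, 11.05 and 11.09 on the control arrays. All mimic arrays lay above the control arrays, by 1.09 ± 0.06 or 2.13-fold (adjusted p = 3.7e-07), and the other TGFBR3 probe set rose by 1.27.

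The receptor SMADs of this arm gave small differences. SMAD2 differed by 0.02 ± 0.06, with an interval of -0.12 to 0.16, and none of its 6 probe sets passed, nor any of the 4 of SMAD3. SMAD3 differed by 0.14 ± 0.06, its mimic arrays all above its control arrays, without passing (adjusted p = 0.155), and it passed with array weights or after quantile normalization again. The co-repressor genes of SMAD2 and SMAD3, SKI and SKIL, both rose. SKIL, which encodes SnoN, read 11.09, 11.12 and 11.18 on the mimic and 10.17, 10.14 and 10.07 on the control arrays. Its groups were apart by 1.005 ± 0.06, or 2.01-fold (adjusted p = 5.6e-07), and 4 of its 5 probe sets rose. SKI rose by 0.36 ± 0.07 (adjusted p = 0.0017) on 1 of its 3 probe sets.

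**Figure D2:**
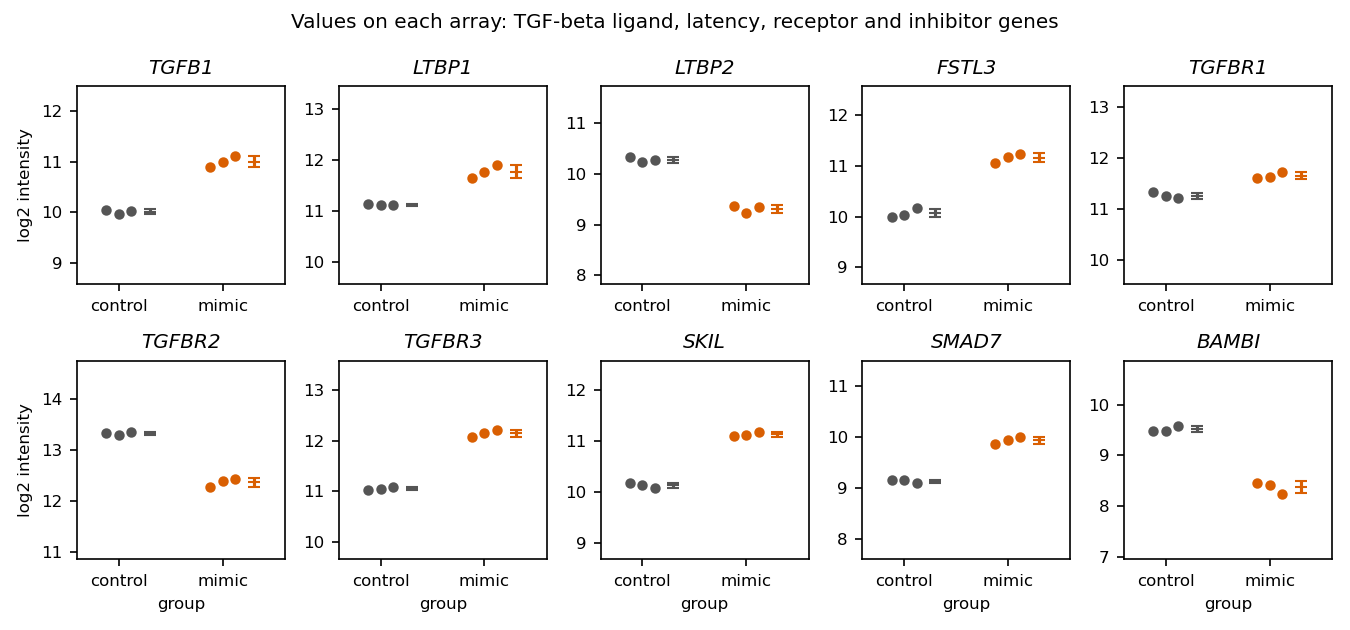
Log2 intensity (vertical axis, each panel spanning an equal range) of 10 genes on the 3 control and 3 mimic arrays, with points for arrays and the mean with its SD beside them. TGFB1, LTBP1, FSTL3, TGFBR1, TGFBR3, SKIL and SMAD7 are higher, and LTBP2, TGFBR2 and BAMBI lower, on every mimic array.

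The BMP arm was then compared in the same way, and 6 of its 17 measured genes rose and 4 fell (58.8%). Of all genes, 30.4% were called, and of those above the highest array median 40.7%. BMP2, a ligand of this arm, read 10.43, 10.60 and 10.54 on the mimic arrays and 8.51, 8.50 and 8.51 on the control arrays. The gap of 2.02 ± 0.06, or 4.05-fold (adjusted p = 5.3e-09), is far wider than the spread within either group, and the second BMP2 probe set rose by 1.71. The other BMP ligand genes did not pass. BMP4 differed by 0.03 ± 0.07 (interval -0.11 to 0.18) and BMP7 by 0.05 ± 0.07 (interval -0.11 to 0.20). GREM1, whose product traps BMP2 and BMP4, averaged 4.72 on the mimic and 4.61 on the control arrays, near the bottom of the array range, and did not pass.

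Of the type I receptor genes, BMPR1B read 8.44, 8.53 and 8.67 on the mimic and 9.42, 9.44 and 9.36 on the control arrays. It was lower on every mimic array, with a difference of -0.86 ± 0.07 (adjusted p = 5.3e-06), and 2 of its 3 probe sets fell. ACVR1, another type I receptor gene, differed by -0.06 ± 0.08 (interval -0.24 to 0.11). BMPR2, the type II receptor gene, rose by 0.25 ± 0.07 (adjusted p = 0.0199) on 3 of its 6 probe sets, and that call was lost without control replicate 1, control replicate 3, mimic replicate 2 or mimic replicate 3 (adjusted p up to 0.0682).

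The receptor SMADs of the BMP arm all passed, in unlike directions. SMAD1 read 9.77, 9.81 and 9.88 on the mimic and 10.46, 10.49 and 10.43 on the control arrays. Its mimic arrays were all lower, by 0.64 ± 0.06 (adjusted p = 1.5e-05), as they were for SMAD5, which fell by 0.41 ± 0.08 (adjusted p = 0.0027) on 4 of its 5 probe sets. SMAD9, which encodes the member once called SMAD8, read 9.46, 9.56 and 9.65 on the mimic and 8.37, 8.21 and 8.31 on the control arrays. It was higher on every mimic array, by 1.26 ± 0.07 or 2.40-fold (adjusted p = 3e-07), and its second probe set rose by 0.29.

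The inhibitors listed in this arm, SMAD6 and SMURF1, both rose. SMAD6, which competes with receptor SMADs mainly in BMP signalling, read 9.39, 9.62 and 9.56 on the mimic and 8.32, 8.60 and 8.40 on the control arrays. The groups were apart by 1.08 ± 0.09, or 2.11-fold (adjusted p = 4.4e-06). A second SMAD6 probe set rose by 0.22, and the remaining ones, at 0.08 and -0.05, did not pass. SMURF1, a ubiquitin ligase that marks SMAD1 and SMAD5 for breakdown, rose by 0.29 ± 0.06 (adjusted p = 0.0054) on 3 of its 5 probe sets.

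The ID genes encode helix-loop-helix proteins that block the DNA binding of their partners and are classic outputs of BMP signalling. ID3 read 11.12, 11.30 and 11.16 on the mimic and 12.23, 12.22 and 12.16 on the control arrays. It was lower on every mimic array, by 1.01 ± 0.07, with the control 2.01-fold higher (adjusted p = 9.9e-07). ID1 read 12.06, 12.24 and 12.11 on the mimic and 12.11, 12.13 and 12.08 on the control arrays. Its groups overlapped, and its difference of 0.03 ± 0.07 had an interval of -0.11 to 0.18. ID2 differed by -0.15 ± 0.08 without passing (interval -0.32 to 0.02), though with its probe sets averaged it fell by 0.17. The probe set listing both ID2B and ID2 went the other way, at 0.38 (adjusted p = 0.001). ID4 averaged 6.65 and 6.46, below the array medians, on a probe set with the suffix x_at that can bind several transcripts, and did not pass.

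TMEM100, a membrane protein gene known as a target of BMP signalling in endothelial cells, read 8.79, 8.85 and 9.24 on the mimic arrays and 6.28, 6.01 and 6.08 on the control arrays. That is the widest gap among the 43 genes, 2.83 ± 0.11 or 7.13-fold (adjusted p = 2.1e-08), from control values below the array medians and on a single probe set. Because TMEM100 and ENG are best known from endothelium, the 7 endothelial markers were read beside them. Of these, KDR fell by 1.48 and the other 6 (PECAM1, CDH5, TEK, VWF, TIE1 and CLDN5) did not pass. The summed log2 level of all 7 was 52.6 to 53.7 on the mimic and 54.2 to 54.3 on the control arrays, and without KDR it was 44.8 to 46.0 and 44.8 to 45.1, which overlap. Their part in the result was not tested.

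**Figure D3:**
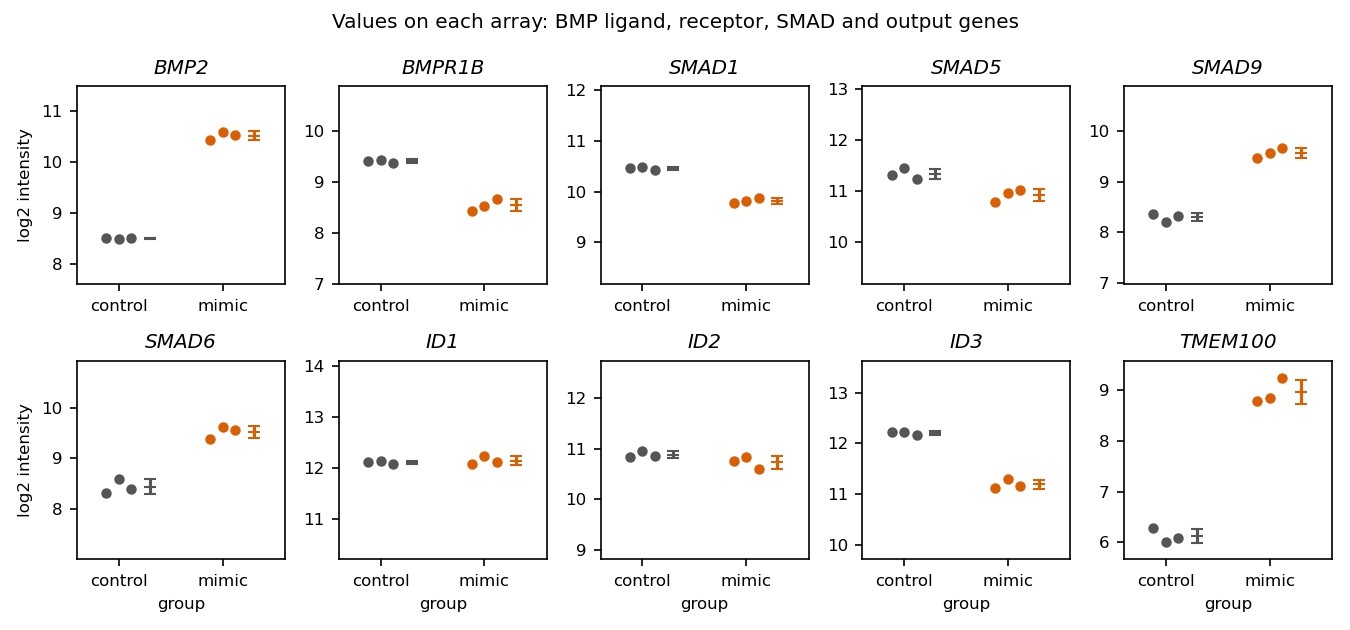
Log2 intensity (vertical axis, each panel spanning an equal range) of 10 genes of the BMP arm on the 3 control and 3 mimic arrays, with points for arrays and the mean with its SD beside them. BMP2, SMAD9, SMAD6 and TMEM100 are higher and BMPR1B, SMAD1, SMAD5 and ID3 lower on every mimic array, while the groups overlap for ID1 and ID2.

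Among the 7 genes that serve both arms, 2 rose and 2 fell (57.1%). The share was 30.4% for all genes and 40.7% for those above the highest array median. SMAD7, the inhibitory SMAD that brings ubiquitin ligases to type I receptors, read 9.87, 9.94 and 10.01 on the mimic and 9.15, 9.15 and 9.09 on the control arrays. Its mimic arrays were all above, by 0.81 ± 0.06 or 1.75-fold (adjusted p = 3.3e-06), on its only probe set. SMURF2, a partner of SMAD7 in that step, rose by 0.48 ± 0.07 (adjusted p = 0.00055) on all 4 of its probe sets. BAMBI, a pseudoreceptor without a kinase domain, read 8.45, 8.43 and 8.23 on the mimic and 9.48, 9.49 and 9.59 on the control arrays. It was lower on every mimic array, by 1.15 ± 0.07, with the control 2.22-fold higher (adjusted p = 7.3e-07). ENG, the co-receptor endoglin, read 8.65, 8.58 and 8.62 on the mimic and 9.27, 9.23 and 9.09 on the control arrays. Its groups did not overlap and it fell by 0.58 ± 0.07 (adjusted p = 6.9e-05), while its second probe set, at -0.20, did not pass. The activin type II receptor genes ACVR2A (0.02 ± 0.07) and ACVR2B (0.05 ± 0.08) and the common SMAD gene SMAD4 (0.12 ± 0.07) did not pass at the probe sets used; SMAD4 passed after quantile normalization again (0.19), and ACVR2B with its probe sets averaged (0.15).

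By role, the 6 genes grouped as intracellular inhibitors rose, from 0.29 for SMURF1 to 1.08 for SMAD6, where 14.1% of all genes rose. That grouping was made with earlier results of these arrays known and leaves out inhibitors that act elsewhere. It also leaves out other regulators that act inside the cell. Among 22 other regulators of receptors and SMADs, 4 rose and 4 fell, with STRAP (-0.34), TGIF2 (-0.34) and FKBP1A (-0.22) among those lower. Of the 3 secreted antagonists, FSTL3 rose while FST (-0.18) and GREM1 (0.10) did not pass, and of the 3 co-receptors and pseudoreceptors TGFBR3 rose and ENG and the inhibitory BAMBI (-1.15) fell. Of the 8 receptor genes measured, 3 rose and 2 fell (62.5%). Of the 8 ligand genes, 2 rose and 2 fell (50%). Of the 5 outputs, TMEM100 rose and ID3 fell (40%). Of all genes, 30.4% passed, and of those above the highest array median 40.7%. Of the 34 genes with several probe sets, none had probe sets called in opposite directions by limma, and 16 of the 20 called ones had a second probe set called the same way. For 4 genes (FST, TGFB2, ACVR2B and SMAD4) the probe set used did not pass while another did.

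**Figure D4:**
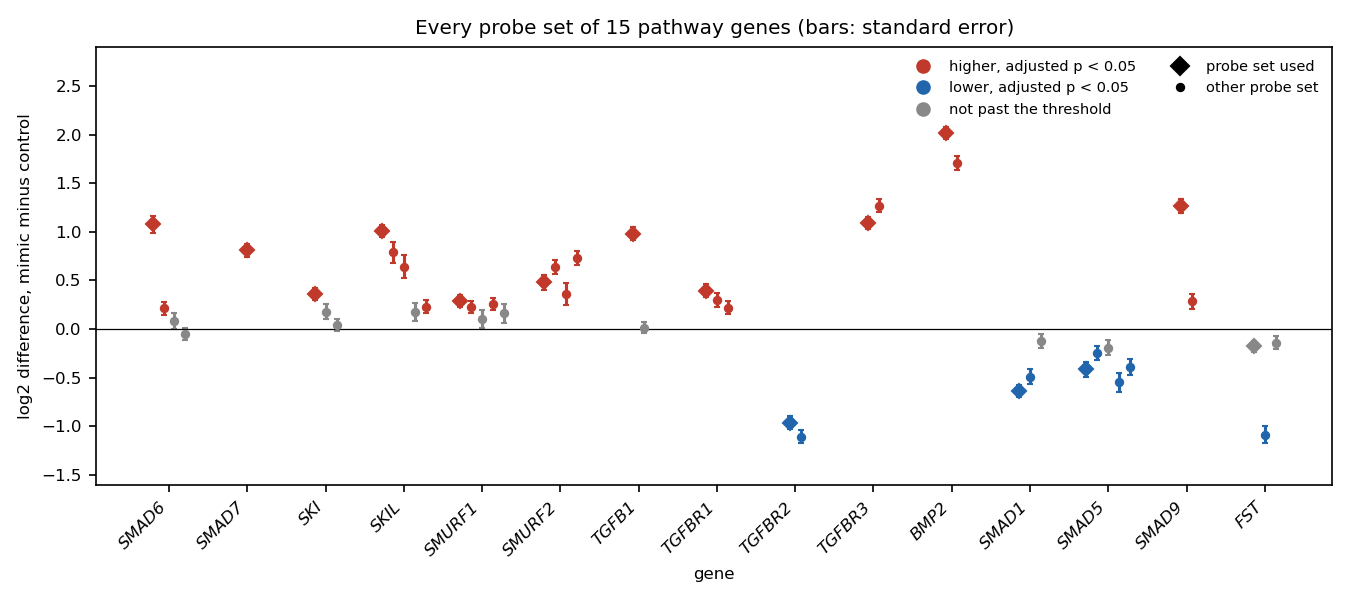
Difference (vertical axis, log2, mimic minus control) with its standard error at every probe set of 15 genes, with a diamond for the probe set used. Probe sets past the threshold lie on 1 side of 0 for each gene shown, as for SMURF2 (4 above) and SMAD5 (4 below), while SMAD6 and TGFB1 have others near 0.

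Members of a family that parted were also compared within each array, where the array's overall brightness cancels. These 4 pairs were chosen after their values were seen. The log2 value of ID3 minus that of ID1 was -0.95 to -0.94 on the mimic and 0.08 to 0.12 on the control arrays. TGFBR2 minus TGFBR1 was 0.65 to 0.78 on the mimic and 2.01 to 2.14 on the control arrays. SMAD1 minus SMAD9 was 0.23 to 0.31 against 2.09 to 2.28, and LTBP2 minus LTBP1 was -2.57 to -2.29 against -0.90 to -0.82. The groups did not overlap for any of the 4 pairs. Because of how the pairs were chosen, these values are a description with no test, and they do not compare the levels of different genes, since probe sets differ in brightness.

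Promoters are shown for SMAD6, SMAD7 and SKIL, inhibitor genes that rose together and are known to be induced by SMADs, and for ID1 and ID3, outputs that gave unlike values. Each is the 250 bases before the annotated start, from RefSeq on GRCh38.p14; 40 of the 44 listed genes had an entry, and for SMAD7, with 3 starts, the most upstream is shown. Capitals mark matches, on either strand, to GTCTAGAC (the palindromic SMAD element), GGCGCC and GGAGCC (GC-rich elements known from BMP-responsive promoters) and CAGAC (the core of the CAGA box). Marked matches do not overlap each other in these 5 windows. The positions are chr15:66701986-66702235 (plus strand) for SMAD6, chr18:48950966-48951215 (minus) for SMAD7, chr3:170357465-170357714 (plus) for SKIL, chr20:31605039-31605288 (plus) for ID1 and chr1:23559502-23559751 (minus) for ID3.
SMAD6: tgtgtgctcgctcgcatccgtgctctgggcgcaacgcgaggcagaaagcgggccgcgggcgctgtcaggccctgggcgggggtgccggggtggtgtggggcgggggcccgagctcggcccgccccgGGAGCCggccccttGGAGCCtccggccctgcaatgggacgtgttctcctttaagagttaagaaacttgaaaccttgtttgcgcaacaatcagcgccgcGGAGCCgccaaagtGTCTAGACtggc
SMAD7: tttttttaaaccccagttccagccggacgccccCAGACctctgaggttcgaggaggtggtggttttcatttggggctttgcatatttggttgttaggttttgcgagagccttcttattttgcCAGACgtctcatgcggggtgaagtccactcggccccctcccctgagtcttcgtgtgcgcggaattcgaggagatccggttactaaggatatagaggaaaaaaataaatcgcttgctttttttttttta
SKIL: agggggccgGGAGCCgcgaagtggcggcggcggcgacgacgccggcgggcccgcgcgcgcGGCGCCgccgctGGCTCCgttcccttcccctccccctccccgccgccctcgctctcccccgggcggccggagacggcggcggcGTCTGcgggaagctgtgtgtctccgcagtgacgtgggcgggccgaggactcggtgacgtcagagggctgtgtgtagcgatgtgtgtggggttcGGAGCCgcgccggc
ID1: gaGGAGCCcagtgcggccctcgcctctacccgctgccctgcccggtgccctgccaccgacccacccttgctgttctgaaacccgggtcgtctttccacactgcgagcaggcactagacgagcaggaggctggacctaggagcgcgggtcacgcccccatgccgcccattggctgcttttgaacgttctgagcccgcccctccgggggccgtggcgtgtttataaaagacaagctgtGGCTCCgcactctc
ID3: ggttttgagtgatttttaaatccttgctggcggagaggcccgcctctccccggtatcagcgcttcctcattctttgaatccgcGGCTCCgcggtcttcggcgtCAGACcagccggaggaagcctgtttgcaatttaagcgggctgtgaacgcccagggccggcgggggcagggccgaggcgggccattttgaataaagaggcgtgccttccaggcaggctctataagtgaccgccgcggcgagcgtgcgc

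GTCTAGAC was found in the SMAD6 window, starting 12 bases before the start site, and in 0.182% of all 35116 windows of that length. Of the 72 windows of the listed genes it was found in 1. GGAGCC occurred 3 times each in the SMAD6 and SKIL windows, 2 times in ID1 and 1 time in ID3. It occurred in 30.6% of all windows and in 47.2% of the 72 windows of the listed genes. GGCGCC occurred 1 time in SKIL (16.4% of all windows, 25% of the 72). CAGAC occurred 2 times in SMAD7, 1 time in SKIL and 1 time in ID3 (38.0% of all windows, 38.9% of the 72). ID1 and ID3, whose values differed on the arrays, thus both hold GGAGCC and lack GTCTAGAC in these 250 bases. Bases farther upstream were not searched, so the windows do not compare the whole promoters. A match is a description of the letters only.

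Other genes of the pathways, from lists of other members and known targets, were read in the same fit. Of 100 measured, 16 rose and 22 fell (38.0%, against 30.4% of all genes). Of the 7 measured genes listed for the handling of the latent TGF-beta complex, 4 fell and 1 (THBS1) rose (71.4%). Among genes above the highest array median the share was 40.7%. PLAT and PLAU, the plasminogen activators, fell by 2.01 and 1.52, and the integrin genes ITGB8 and ITGAV, whose products together release TGF-beta from its latent complex, fell by 1.16 and 0.45. Of 12 other secreted inhibitors, 3 rose and 1 fell (33.3%). DCN, a proteoglycan that binds TGF-beta, rose by 1.66 on a probe set with the suffix x_at, and 6 of its 7 probe sets rose. The BMP antagonist genes NBL1 and NOG rose by 0.68 and 0.31, and FSTL1, a follistatin-like glycoprotein gene, fell by 1.70 on 1 of its 3 probe sets. Of 18 other ligands, 16.7% passed. BMP8B rose by 0.52 on 1 of its 3 probe sets. BMP1, a protease despite its name, fell by 0.27 on 3 of its 7 probe sets, and GDF15 by 0.25 on 1 of its 3. The GDF15 call was lost without control replicate 1 (adjusted p = 0.0654) and with all probe sets averaged (-0.09). Of 7 other receptors, 1 passed (14.3%). This was NEO1, a receptor of repulsive guidance molecules, which fell by 0.38 on 1 of its 3 probe sets.

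Of 22 other regulators of receptors and SMADs, 4 rose and 4 fell (36.4%, against 30.4% of all genes). NEDD4L, a ubiquitin ligase for activated SMAD2 and SMAD3, rose by 0.59 on 3 of its 6 probe sets. The co-repressor gene TGIF1 rose by 0.47, and the phosphatase gene PPM1A by 0.41 on 3 of its 6 probe sets. The endosomal adaptor gene ZFYVE16 fell by 0.65 on 1 of its 5 probe sets. Of 22 TGF-beta target genes, 9 rose and 7 fell (72.7%, against 40.7% of genes above the highest array median). The scaffold gene NEDD9 rose by 1.56, and TNC, SERPINE2 and TAGLN fell by 1.35, 1.25 and 1.14, each on some but not all of its probe sets. PMEPA1 and THBS1 stand in this list and also in those above. Of 15 BMP target genes, 1 (NOG, also an antagonist above) rose and 3 fell (26.7%). TBX3 fell by 0.65, GATA3 by 0.48 and HEY1 by 0.31; TBX3 has 7 probe sets, of which 2 fell and 1 rose, and with all averaged it differed by -0.13 and did not pass (adjusted p = 0.0801). The median difference was 0.07 for the TGF-beta targets and 0.02 for the BMP targets, beside 0.03 for all genes.

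**Figure D5:**
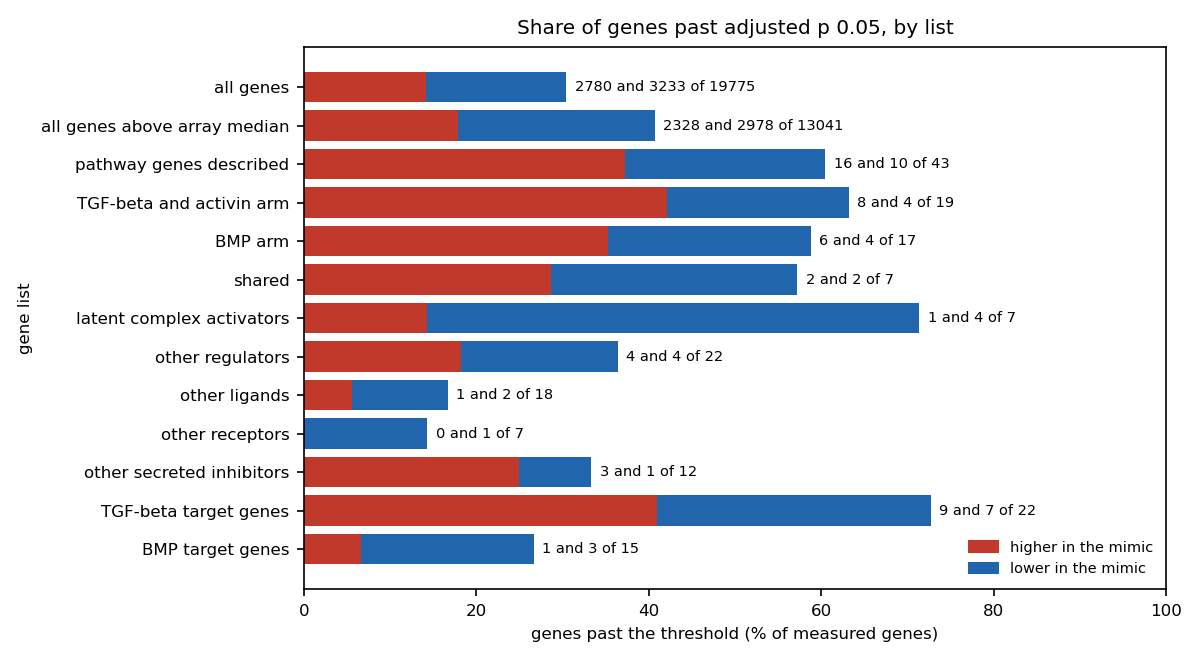
Share of measured genes past the threshold (horizontal axis, percent), higher in red and lower in blue, for all genes, the genes described here by arm, and the lists of other pathway genes, with the counts of higher and lower genes at each bar. The TGF-beta targets (72.7%) and the 43 genes (60.5%) lie above all genes (30.4%) and the genes above the highest array median (40.7%). The BMP targets (26.7%) and other ligands (16.7%) lie below both.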

How the data were processed

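RNA of 3 mimic and 3 control samples was measured on 1 array each. The deposited values are log2 intensities per probe set, which the authors made with RMA, per the submitters' processing notes. RMA equalises the distributions of the arrays, which hides any change in total RNA, and it shrinks differences of dim probe sets. Of 54675 probe sets, 62 controls were left out. Genes were named from the platform annotation: 41091 probe sets list 1 gene, 1801 several and 11721 none here, and each gene was read at its brightest probe set by the mean of the 6 arrays. Groups were compared with limma 3.58.1 (lmFit and eBayes) in R 4.3.3, adjusted by Benjamini-Hochberg over 54613 probe sets, after checks on simulated data. Values on every array are given for genes past the threshold with a difference of at least 0.5, and up to 4 genes are named per further list. Some further genes are named where they limit a statement. The genes and lists were chosen with earlier results of these data known. Replicate numbers were not treated as pairs. The labels call the replicates biological but do not say how they were separated. Probe sets whose suffix is s_at or x_at can bind several transcripts. Tables were made with Python 3.11.15.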

Additional observations from a re-analysis of the deposited data

How the results depend on the processing

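Of the 26 genes called, 22 kept their direction and call in all 13 alternatives that change normalization, filter, variance model, weights, block, arrays or probe sets; the other 4 were INHBA, INHBB, BMPR2 and ACVR1B. Adding a 1.5-fold minimum left by construction fewer genes: 10 higher, 6 lower, 16 other pathway genes and, of all genes called, 1723. Leaving out each array gave 14 to 16 higher and 8 to 10 lower genes; in the TGF-beta and activin arm 2 were lower, in place of 4, without control replicate 1, 2 or 3 or mimic replicate 1. With the replicate block, 16 genes were higher and 9 lower, the INHBA call being lost (adjusted p = 0.068). Deviations of same-numbered arrays from their group means correlated at -0.11, 0.08 and 0.08, and those of unlike-numbered arrays at -0.19 to 0.12. Such deviations cancel out within each small group, so these values cannot show whether the arrays were paired. The main fit used no pairs. Among genes that did not pass, TGFB2, LTBP3, FST, ACVR2B, SMAD3, SMAD4 and ID2 passed under at least 1 alternative, and small differences changed sign. With medians centred, TGFB3 was at -0.0023, ACVR2A at -0.0059 and SMAD2 at -0.010, and after quantile normalization again ACVR1 was at 0.0029. When arrays were left out, TGFB3 ranged from -0.045 to 0.080, BMP7 from -0.0039 to 0.091, ACVR1 from -0.12 to 0.013, ACVR2A from -0.014 to 0.083, ACVR2B from -0.0062 to 0.13, SMAD2 from -0.0073 to 0.054 and ID1 from -0.018 to 0.070. The cause was not tested.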
